A study of Mus musculus with 2 samples.

Results

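miR-191, miR-425 and miR-378a are conserved microRNAs made from 2 genomic loci, and 3 counted rows carry them among the 1973 miRNA rows of these libraries. Mir425 was read on its own annotated strand. miR-191 was read from the strand opposite the predicted gene Gm24083, and miR-378a from the strand opposite the predicted gene Gm25301, because Mir191 and Mir378a lie there. The members and their strands were chosen by the read counts of these libraries, so their levels and strand shares are descriptions without a test. Small RNA, with a stated size range below 30 nt, was sequenced from whole midbrain of wild-type B6NCrl mouse embryos at embryonic day 14.5. The 1 group held 2 libraries, described as biological replicates, each from a single midbrain collected on a different day. The labels give mixed sex; they also name pup 1 of pregnancy 2, and the same donor identifier, for both libraries. If they did not come from separate animals, the SDs below would not measure variation between animals. No treatment or mutation is given, so no conditions could be compared.

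A miRNA is cut from a hairpin in a longer transcript, first by Drosha with DGCR8 in the nucleus and then by Dicer in the cytoplasm. Either arm of the hairpin can be loaded into an Argonaute protein, which then pairs with target mRNAs mainly through the seed, bases 2 to 8 of the miRNA. A miRNA within an intron can be transcribed with its host gene. miR-191 and miR-425 are made from neighbouring hairpins and occur in many tissues, and miR-191 is a common normaliser in miRNA qPCR. In neurons miR-191 has been linked to spine remodelling in long-term depression and to repression of the growth factor BDNF. miR-378a lies within Ppargc1b, the gene of the coactivator PGC-1β, and takes part in the control of mitochondrial and lipid metabolism.

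The sequences of the chromosome 9 pair show what each read could come from, and RefSeq (GRCm38.p6) held them for 2 of the 3 miRNAs, miR-191 and miR-425 but not miR-378a. The hairpins are given first, 5′ to 3′, with both mature arms in capitals.
Mir191 hairpin: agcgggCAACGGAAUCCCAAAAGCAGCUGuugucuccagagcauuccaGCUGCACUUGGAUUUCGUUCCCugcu
Mir425 hairpin: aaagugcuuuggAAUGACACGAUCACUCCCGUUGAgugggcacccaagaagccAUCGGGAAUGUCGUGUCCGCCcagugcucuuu
The mature RNAs follow with the seed in capitals, together with the other mouse miRNA that carries a seed of this pair.
mmu-miR-191-5p: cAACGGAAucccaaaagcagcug
mmu-miR-191-3p: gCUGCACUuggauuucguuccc
mmu-miR-425-5p: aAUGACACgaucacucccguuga
mmu-miR-425-3p: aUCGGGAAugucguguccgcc
mmu-miR-489-3p: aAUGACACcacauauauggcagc

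Although the hairpins are neighbours, the 5p arms of miR-191 and miR-425 share no stretch longer than 4 bases and their seeds differ. Among 1738 mature mouse miRNAs in the RefSeq table, no other one carries the seed of either miR-191 arm or of miR-425-3p. The seed of miR-425-5p also stands in miR-489-3p, whose locus Mir489 had 5 reads in replicate 1 and 8 in replicate 2. Mir425 itself had 10684 and 4732 reads, in which the counts do not tell its arms apart. RNAfold paired 56 of the 74 bases of the Mir191 hairpin at -35.0 kcal/mol and 56 of the 85 bases of the Mir425 hairpin at -31.7 kcal/mol. Neither hairpin shares an exact stretch of 16 nt or more with any other of the 2202 miRNA hairpins searched.

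The label of the pair as intronic holds only in part in the annotation used here. In mouse assembly mm10, Mir191 lies at chr9:108568319-108568392 and Mir425 at chr9:108568777-108568861, both on the plus strand and 384 bases apart. GENCODE M21 places both within the noncoding gene 4833445I07Rik (chr9:108567533-108569174) and starts the protein-coding gene Dalrd3 1024 bases after the end of Mir425. An unspliced transcript of 4833445I07Rik covers both hairpins with its exon. In its spliced transcript Mir191 falls in the intron, and Mir425 begins just after the last exon. RefSeq draws Dalrd3, which encodes a protein with an anticodon-binding domain, from 108567484 to 108572773, so that both hairpins lie inside it. Mir378a (chr18:61397835-61397900, minus strand) lies in an intron of Ppargc1b in GENCODE M21, 2530 bases from the start of that gene. Gm24083 (ENSMUSG00000092915.1) covers Mir191 with 24 and 22 bases to spare, and Gm25301 (ENSMUSG00000093026.1) covers Mir378a with 22 and 25 bases to spare. Both arms of each hairpin are therefore within the counted rows.

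**Figure D1:**
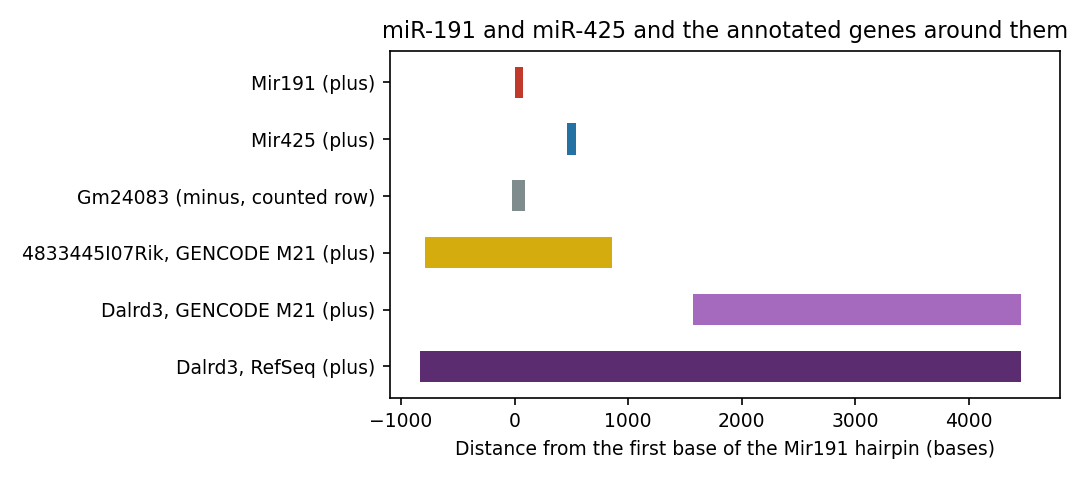
Map of the miR-191 and miR-425 hairpins and the genes annotated around them, with distance from the first base of the Mir191 hairpin in bases on the x axis and 1 bar per gene. The hairpins lie 384 bases apart, inside 4833445I07Rik and the RefSeq extent of Dalrd3, and upstream of the GENCODE M21 extent of Dalrd3.

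miR-191 was the most abundant of the 3 miRNAs and the most even between the libraries of the 3. It had 19911 reads in replicate 1 and 10842 in replicate 2. As CPM, counts scaled by the annotated-strand total of the library, this was 2727 CPM (exact Clopper-Pearson 95% interval 2689 to 2765) and 2733 CPM (2682 to 2785). The mean was 2730 ± 4.73 CPM (SD, n = 2), in place 65 of all 1973 rows. This small SD rests on plain totals: with library sizes scaled by TMM (edgeR's trimmed mean of log ratios) the level was 2731 ± 120 CPM (SD, n = 2). With plain totals the libraries differed by less than either counting interval. For the places given here, all rows other than Gm24083 and Gm25301 were ranked on their annotated strand. With the opposite strand used at every row where it led, the places were 68 for miR-191, 85 for miR-425 and 88 for miR-378a. CPM was not divided by length, since a read stands for a mature RNA, which in this pair has 21 to 23 nt. In whole tissue, fewer cells of a type and less RNA per cell cannot be told apart.

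miR-425 stood lower, at 10684 reads or 1463 CPM (1435 to 1491) in replicate 1 and 4732 reads or 1193 CPM (1159 to 1227) in replicate 2. Its mean was 1328 ± 191 CPM (SD, n = 2), place 82. The counting intervals of the libraries did not overlap, and by a test of counting error 54.1% of the detected loci differed.

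miR-378a had 9893 reads or 1355 CPM (1328 to 1382) in replicate 1 and 3418 reads or 862 CPM (833 to 891) in replicate 2. The mean was 1108 ± 349 CPM (SD, n = 2), place 85, and the rank was 82 in replicate 1 and 102 in replicate 2. Replicate 1 was the high library for miR-425 and miR-378a, and the coefficient of variation was 31.5% for miR-378a, 14.4% for miR-425 and 0.173% for miR-191 with plain totals. With TMM it was 35.8% for miR-378a, 18.9% for miR-425 and 4.39% for miR-191. The means of miR-378a and miR-425 differed by less than the SD of miR-378a, although miR-378a was the lower of both in each library. Together the 3 miRNAs equalled 0.554% of the annotated-strand total in replicate 1 and 0.479% in replicate 2.

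**Figure D2:**
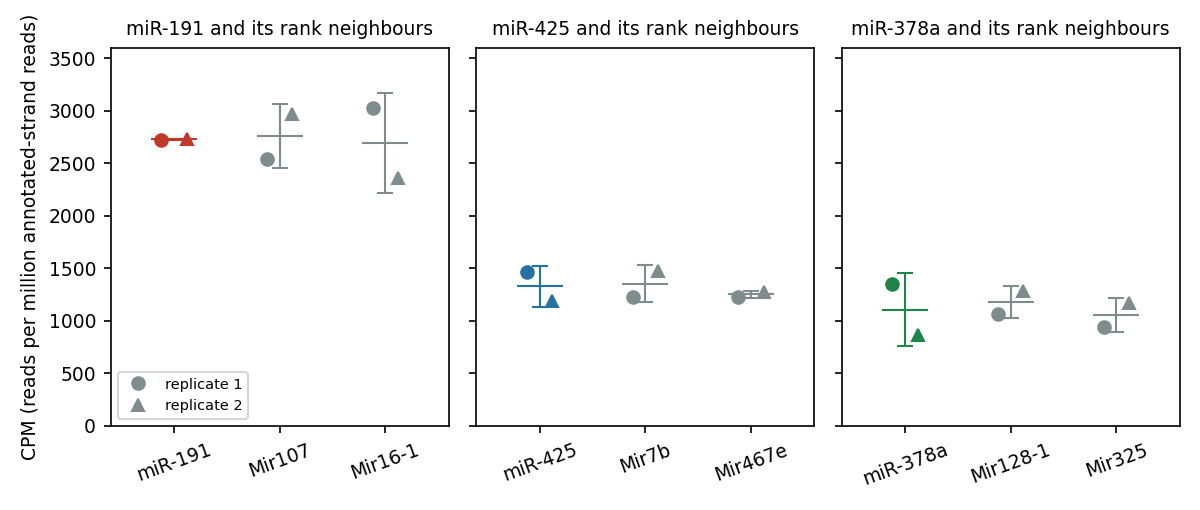
Level of each miRNA in CPM (y axis) beside the loci directly above and below it by mean, with circles for replicate 1, triangles for replicate 2, horizontal ticks for the mean and error bars for the SD of the 2 libraries. The libraries coincide for miR-191 (2727 and 2733 CPM) and lie apart for miR-378a (1355 and 862 CPM), and each miRNA overlaps its neighbours.

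The order of the 3 miRNAs among their neighbours was not resolved. Mir107, in an intron of the pantothenate kinase gene Pank1, stood directly above miR-191 at 2757 ± 305 CPM, and Mir16-1, of the cell cycle miR-15/16 family, directly below at 2692 ± 475 CPM. Mir7b (1354 ± 174 CPM) and Mir467e (1253 ± 32.8 CPM) enclosed miR-425. Mir128-1, a neuronal miRNA in R3hdm1, and Mir325 enclosed miR-378a at 1179 ± 155 and 1056 ± 161 CPM. None of these 6 neighbours differed from its member by more than the larger of their SDs. In all, 12 loci lay within that distance of miR-191, 8 of miR-425 and 23 of miR-378a. Mir107, Mir16-1, Mir467e and Mir128-1 share an exact 20-nt stretch with a miRNA hairpin elsewhere. Reads that mapped to several places were not counted, so the levels of these neighbours can be too low.

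By distance of log2(CPM + 1) over the 2 libraries, the loci most like miR-191 were Mir125b-2 (0.109), Mir139 (0.143) and Mir107 (0.158). Those most like miR-425 were Mir182 (0.174), Mir467e (0.268) and Mir92-1 (0.281). The nearest to miR-378a were farther off, namely Mir467c (0.469), Mir138-1 (0.473) and Mir425 (0.482). The likeness rests on 2 libraries and mainly reflects level. Mir125b-2, Mir107, Mir467e, Mir92-1, Mir467c and Mir138-1 share an exact 20-nt stretch with a miRNA hairpin elsewhere, so their counted levels can be too low.

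**Figure D3:**
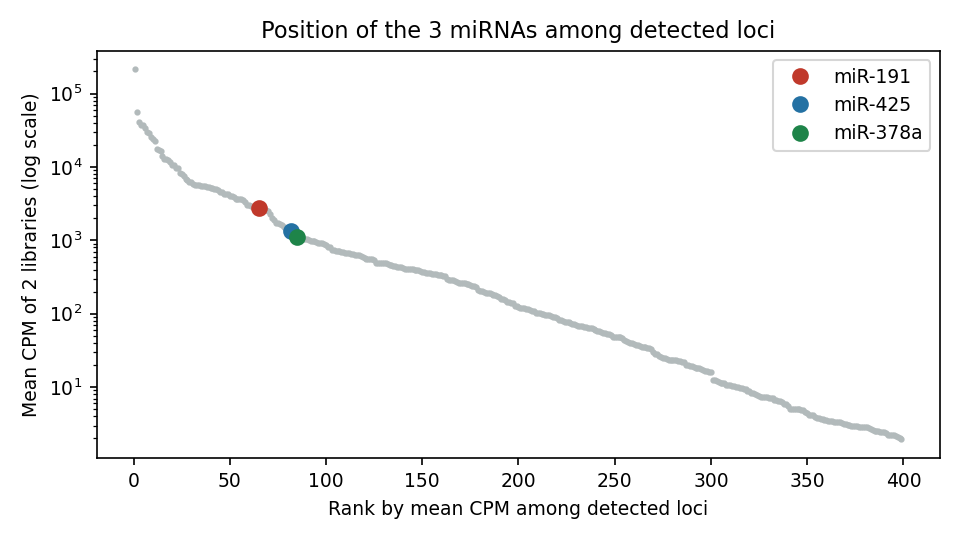
Mean CPM of the 2 libraries (y axis, log scale) against rank for the 399 detected loci, with at least 10 reads in each library, 1 point per locus. miR-191 stands in place 65, miR-425 in place 82 and miR-378a in place 85. Loci other than miR-191 and miR-378a are placed by their annotated strand.

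Reads of miR-191 exceeded those of its neighbour miR-425 in both libraries. The ratio was 1.86 (exact 95% interval 1.82 to 1.91) in replicate 1 and 2.29 (2.21 to 2.37) in replicate 2, with a mean of 2.08 ± 0.302 (SD, n = 2). This ratio needs no scaling between libraries, and it differed between them by more than counting error. miR-378a, from the other chromosome, had 0.926 (0.901 to 0.952) reads per read of miR-425 in replicate 1 and 0.722 (0.691 to 0.755) in replicate 2. The ratio of miR-191 to miR-378a was 2.01 in replicate 1 and 3.17 in replicate 2. Relative to miR-378a both chromosome 9 miRNAs were therefore higher in replicate 2.

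Other neighbouring miRNA loci give a scale for the pair. With at least 100 reads in each library, 81 other pairs of loci followed each other on 1 strand within 10 kb. The pair of miR-191 and miR-425 differed 2.07-fold (geometric mean of the libraries), and the other pairs had a median of 4.76-fold, with 19 of the 81 closer in level. Between the libraries, the log2 ratio moved by 0.298 for miR-191 over miR-425, and by a median of 0.234 for the other pairs, of which 48 moved less. Where both loci also lacked a near-identical copy, 54 pairs had a median difference of 4.005-fold, and 13 of them were closer in level than miR-191 and miR-425.

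**Figure D4:**
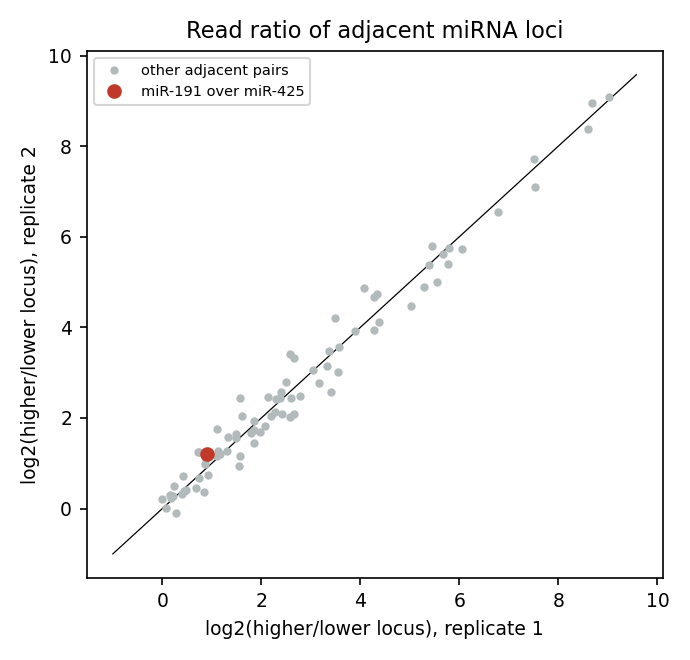
Log2 ratio of the higher to the lower member of each adjacent pair of miRNA loci in replicate 1 (x axis) and replicate 2 (y axis), 1 point per pair, with a line where the libraries are equal. The pair of miR-191 and miR-425 lies at the low end, at ratios of 1.86 and 2.29, just above the line.

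Reads at the 2 predicted genes came from the opposite strand throughout. Gm24083 had no read on its annotated strand in either library, against 19911 and 10842 on the opposite one. Gm25301 likewise had none, against 9893 and 3418. With 3 reads as the limit, a count of 0 leaves room for a level below 0.411 CPM in the deeper library and below 0.756 CPM in the other. At Mir425 the opposite strand had 2 reads in replicate 1 and 0 in replicate 2, which is 0.0187% (exact interval 0.00227 to 0.0676) of its reads in replicate 1. In both libraries reads of the opposite strand outnumbered those of the annotated one at 14 rows, 11 of them with at least 10 such reads in each. By level on that strand, miR-191 was the fourth and miR-378a the fifth of the 14, below Gm25252 (5483 CPM) and above Gm24970 (0.195 CPM), the highest and lowest rows. The 2 rows held 19.8% of all opposite-strand reads in replicate 1 and 17.0% in replicate 2. At the rows where the annotated strand led, the opposite strand held 0.0046% and 0.00532% of reads. No row under the names Mir191 or Mir378a was among the loci with at least 10 reads in each library.

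The relatives of miR-378a were near the floor, and share sequence with it. Mir378b had 2 reads in replicate 1 and 0 in replicate 2, Mir378c had 7 in each, and Mir378d had 35 and 11. miR-378a had 9893 and 3418. The longest exact stretch that the Mir378a hairpin shares is 20 nt with Mir378c, 19 nt with Mir378b and 15 nt with Mir378d, and each lies within the mature RNA of the relative. Reads that mapped to several places were not assigned to any gene, and they made up 36.2% of replicate 1 and 36.9% of replicate 2. The level of miR-378a and those of its relatives can therefore be too low, and how many reads they share was not tested. No such stretch was found for miR-191 or miR-425.

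Against other intronic miRNAs, miR-378a stood high. Of 654 other loci that GENCODE M21 places in introns of protein-coding genes, 160 were detected, and 33 had a higher mean than miR-378a. The detected ones had a median of 67.8 CPM, with quartiles of 6.58 and 641 CPM. All 1970 loci other than the 3 members had a median of 0 CPM, and their 396 detected loci a median of 119.8 CPM. A near-identical copy exists for 261 of the 654 loci and for 928 of the 1970, so their levels and the medians can be too low. Since the members were chosen by read counts, these figures only place them.

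The reference miRNAs, a list of 16 loci of miRNAs often used as qPCR normalisers, had a count at 15 loci, all detected. Numbered copies such as Mir103-1 and Mir103-2 count as separate loci. miR-191 (2730 ± 4.73 CPM) stood below 6 of them, and miR-425 and miR-378a below 8. Their levels ran from 10.03 ± 1.70 CPM for Mir103-1, which has a near-identical copy, to 29181 ± 1989 CPM for Mir17, of the miR-17-92 cluster. Mir16-1 was nearest to miR-191, and Mir186, in Zranb2, was nearest to miR-425 and miR-378a at 1033 ± 126 CPM. The median of the list was 2270 CPM. Of this list 6 loci, Mir16-1 among them, have a near-identical copy, so their levels and the median can be too low. Apart from the list, Mir425 is itself sometimes used in this way.

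The metabolic miRNAs included regulators of lipid metabolism, mitochondria and oxidative muscle. They had a count at 15 of 16 loci, 13 of them detected, with a median of 67.1 CPM. miR-378a (1108 ± 349 CPM) stood above all but Mir107, which regulates insulin sensitivity, and Mir27b, an adipogenesis regulator, was the nearest below at 994 ± 155 CPM. Mir33, which lies in Srebf2 and represses cholesterol export, had 140.1 ± 35.4 CPM, and Mir122, the main liver miRNA, 12.2 ± 2.66 CPM. Mir378b was the lowest at 0.137 ± 0.194 CPM. Of this list 6 loci have a near-identical copy.

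miRNAs that share roles with miR-191 in synaptic depression or BDNF repression had a count at 8 of 9 loci, 7 of them detected. Mir135b, of the miR-135 family that acts with miR-191 in long-term depression, was the highest at 16627 ± 1341 CPM. Mir30a followed at 11527 ± 801 CPM, and both stood above miR-191. Mir10b, which represses BDNF, was the nearest to miR-191 at 475 ± 88.1 CPM. Mir1a-1, the lowest, had 1 read in replicate 1 and none in replicate 2. Of this list 3 loci, Mir1a-1 among them, have a near-identical copy, so their levels can be too low.

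The libraries differed at miR-378a by more than at most loci of like level. Replicate 2 over replicate 1, after TMM scaling, gave log2 values of -0.75 (95% counting interval -0.80 to -0.69) for miR-378a and -0.39 (-0.44 to -0.34) for miR-425. miR-191 gave -0.09 (-0.12 to -0.06), but 0.00353 with plain library totals, so its direction was not resolved. An exact two-sided binomial test with Benjamini-Hochberg adjustment over 399 detected loci called all 3 lower in replicate 2. The adjusted p of this exact test was 4.75e-160 for miR-378a, 4.04e-54 for miR-425 and 5.65e-07 for miR-191. The same test called 54.1% of the 399 loci, 30.3% lower and 23.8% higher in replicate 2. With plain totals the split turned, to 91 loci lower and 127 higher, against 121 and 95 with TMM. The test takes in no variation beyond read counting, and it sets 1 library against the other rather than any conditions.

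With edgeR's exactTest at the biological coefficient of variation estimated over all loci, 0.219, none of the 3 was called, each with an adjusted p of 1. The unadjusted p of edgeR's exactTest was 0.1004 for miR-378a, 0.391 for miR-425 and 0.843 for miR-191. That coefficient comes from the same 2 libraries that are compared, which limits the calls that this test can make. The test called 5 of 399 loci, or 1.25%, and 17 had an unadjusted p under 0.05. By size, miR-378a was beyond 1.5-fold, as were 16.8% of detected loci, and miR-425 and miR-191 were within it. Among the 40 detected loci nearest in level to each member, 40 differed less between the libraries than miR-378a, 35 less than miR-425 and 9 less than miR-191. The median absolute log2 difference was 0.19 around miR-378a and miR-425, 0.20 around miR-191, and 0.23 over all detected loci.

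Several miRNAs of blood and vessels were lower in replicate 2 as well. The red cell miRNA Mir451a had 447 CPM in replicate 1 and 123 CPM in replicate 2, and Mir144 had 28.8 and 18.9 CPM. Myeloid Mir223 had 212 and 24.5 CPM. Endothelial Mir126a had 27037 and 18011 CPM, and smooth muscle Mir143 5423 and 3694 CPM. Thus 2 of 2 red cell, 1 of 1 myeloid and 2 of 2 vascular markers passed the exact binomial test as lower in replicate 2, where 30.3% of all loci did. That test takes in counting error alone. These short lists were chosen with earlier results of these data known and leave out other miRNAs of blood and vessels. Those left out did not all fall. After TMM scaling the log2 ratio of replicate 2 over replicate 1 was -0.60 for Mir145a, but 0.044 for Mir486, 0.18 for Mir221 and 0.068 for Mir222. The counts are therefore descriptions only. Summed, the red cell list had 476 CPM in replicate 1 and 142 CPM in replicate 2, and the vascular list 32460 and 21706 CPM. Their part in the levels of miR-378a and miR-425 was not tested.

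Muscle, where miR-378a is abundant, left few reads. Of 6 muscle markers with a count, Mir133a-1 and Mir133a-2 had no read and Mir1a-1 had 1. Mir1b, which is outside this list, had 45 reads in replicate 1 and 25 in replicate 2. Replicate 1 had 33.8 CPM over the whole list and replicate 2 had 44.9 CPM. With TMM, 0 of its 3 detected loci (Mir206, Mir208b and Mir499) were called in either direction, and with plain totals 1 was higher in replicate 2. Mir133a-1, Mir133a-2 and Mir1a-1 have near-identical copies, so that their shared reads were not counted. The part of muscle in the level of miR-378a was not tested. All 7 neural markers were detected, at 35391 and 40283 CPM in sum; 3 of the 7 passed the binomial test as higher in replicate 2, where 23.8% of all loci did, and 0 as lower, where 30.3% did. With plain totals 5 of the 7 were higher, where 31.8% of all loci were. Mir124a-1 and Mir124a-2, defining neuronal loci with near-identical copies, were low at 6.66 ± 1.23 and 11.3 ± 0.357 CPM. The reference miRNAs split, with 9 of 15 called lower and 3 higher in replicate 2 (8 and 5 with plain totals) and a median log2 ratio of -0.31, against 0.002 over all detected loci other than the members. miR-378a moved by more than each of these 15, miR-425 by more than 9 and miR-191 by more than 2. In the metabolic list 1 of 13 was called lower and 5 higher, and in the synaptic list 2 of 7 lower and 3 higher, beside the same 30.3% and 23.8% of all loci. With plain totals the synaptic list had 4 higher.

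**Figure D5:**
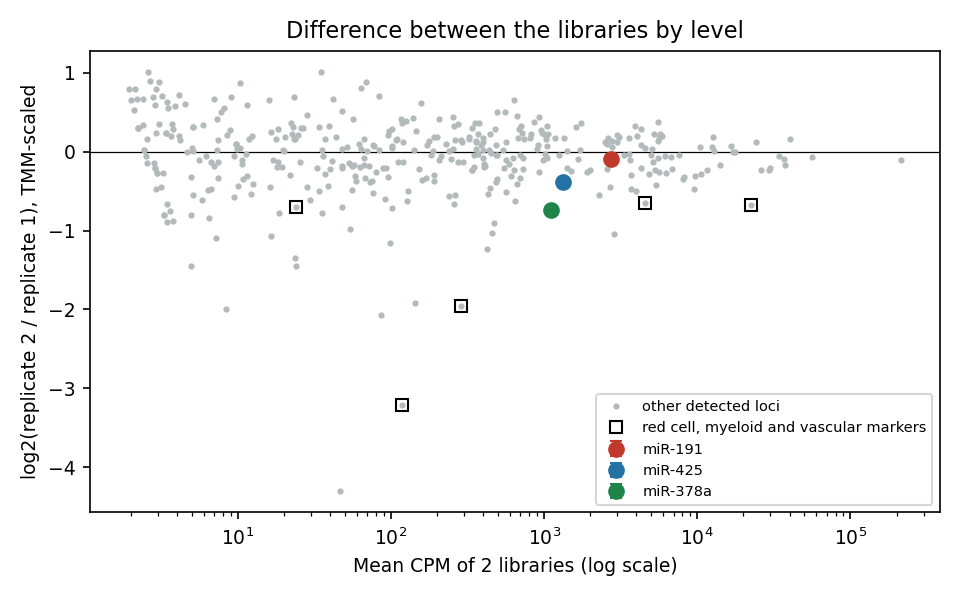
Log2 ratio of replicate 2 over replicate 1 after TMM scaling (y axis) against mean CPM (x axis, log scale) for 399 detected loci. Coloured points are the 3 miRNAs with 95% counting intervals (smaller than the points), open squares the red cell, myeloid and vascular markers; miR-378a lies at -0.75 and miR-191 at -0.09.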

How the data were processed

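The authors deposited raw read counts for each miRNA gene (both strands, annotated strand, opposite strand), made on mm10 with annotation M4, per the accompanying text; aligner and counter: not given in the sources used here. Annotated-strand totals were 7302633 and 3966727 reads, so that 1 read equalled 0.137 and 0.252 CPM. The unmapped (19.0% and 18.5%), several-places (36.2% and 36.9%), no-gene (3.10% and 2.17%) and ambiguous (0 reads) classes were left out of totals and tests. Members, lists and markers were chosen with earlier results of these data known. Symbols and hosts came from GENCODE M21 (1894 of 1973 identifiers matched). Detected means at least 10 reads in each library, and a near-identical copy is an exact 20-nt stretch shared with a miRNA hairpin elsewhere.

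Named loci were the members, the highest, lowest and nearest locus of each list, rank neighbours and the 3 most alike. The ends of the opposite-strand rows and the markers were named as well. Mir33, Mir122, Mir30a, Mir489, Mir145a, Mir486, Mir221 and Mir222 were added after their values were seen. TMM and exactTest came from edgeR 4.0.16, size factors from DESeq2 1.42.0, other tests from R 4.3.3 and scipy 1.17.1, and folds from RNAfold 2.7.2. With 1 group no contrast between conditions could be fitted. The binomial test was tried on simulated counts with counting error alone, which cannot show how it behaves with variation beyond counting. There it called 86.1% of changed and 5.24% of unchanged loci. Since PCR copies are not independent molecules, intervals and the 3-read limit hold for counting error alone. Differences in capture between miRNAs were not tested. Settings tried were other totals and scalings, filters, pseudocount, strand and each replicate left out.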

Additional observations from a re-analysis of the deposited data

How the results depend on the processing

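Of 118 recomputed values 98 kept their direction and their side of the threshold, or moved by no more than the replicate SD. Levels, read ratios and strand shares with 1 replicate left out always lie within that SD, so they could not have moved. Counting both strands could not change miR-191 or miR-378a either, since their rows had no read on the other strand. The exceptions follow. Against all reads of the library, the levels were 1124 CPM for miR-191, 547 CPM for miR-425 and 456 CPM for miR-378a. Without Mir99a in the total, miR-191 stood at 3474 and miR-425 at 1690 CPM. Only miR-191, with its small SD, moved when both strands made the total (2674.1 CPM) or when the opposite strand was used at every row where it led (2674.2 CPM, place 68). The shifts in level follow from the totals used. The place of miR-191 changed because other rows led by the opposite strand, Gm25252 the highest, then ranked above it. In that setting miR-425 stood in place 85 and miR-378a in place 88, each within the SD of its rank. The log2 ratio of miR-191 between the libraries turned to 0.00353 with plain totals, where its adjusted p in the exact binomial test was 0.901 and 218 loci were called, 127 higher and 91 lower in replicate 2. With edgeR's exactTest, which allows for variation beyond counting, 5 loci were called in place of 216, and the ratios of -0.0895, -0.39 and -0.75 for miR-191, miR-425 and miR-378a were no longer past the threshold. With each replicate left out, the levels ranged from 2727 to 2733 CPM for miR-191, 1193 to 1463 CPM for miR-425 and 862 to 1355 CPM for miR-378a, and the place of miR-378a from 82 to 102. The median log2(CPM + 1) of intronic loci was 6.06 ± 0.030 (SD of the libraries over the same loci), and 8.77 with a minimum of 100 reads, which keeps fewer loci. It was 4.45 without replicate 2 and 6.06 without replicate 1. Those 2 values took all loci with at least 10 reads in the library that was kept, so the sets of loci differ. Calls within lists under other scalings were added after seeing the data; with plain totals more muscle (1 for 0), neural (5 for 3) and reference (5 for 3) loci were higher in replicate 2. With the minimum of 100 reads 8 metabolic loci passed in place of 13. No paired analysis was possible because the series holds 1 group. Depth and the 2 libraries limit all statements on spread.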
